A study of Mus musculus with 12 samples.

Results

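Hrh3, Hrh1 and Hrh2, the genes of the histamine H3, H1 and H2 receptors, and Hdc, the gene of histidine decarboxylase, were followed in the urothelium of mice with and without Stag2, which encodes a subunit of the cohesin complex. These 4 of the 23337 genes in the count tables were selected by symbol. Hrh3 is among them because of its counts in these libraries, so its levels are described here with no test, while the other 3 are there as genes of the same pathway. The question was whether the low Hrh3 level of the knockout is matched or offset by Hrh1, Hrh2 or Hdc. RNA was taken from peeled urothelium, the epithelial lining of the bladder and urinary tract stripped from the tissue under it, of Stag2-WT (WT) and Stag2-KO (KO) mice. The mice of all 4 groups, with 3 libraries each, ate a diet with TMX, the usual abbreviation of tamoxifen, for 1 week, WT mice included, and were taken 1 week or 1 month after that diet began. The Cre driver, the Stag2 exons removed, the age and the sex of the mice are not given in the sources used here. The 6 libraries at 1 week form batch 1, and each genotype has 2 libraries in batch 2 and 1 in batch 3 at 1 month, so time and batch cannot be told apart.

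Histamine is made from histidine by Hdc, stored mostly in mast cells and basophils, and sensed by G protein-coupled receptors. H1 signals through Gq to phospholipase C, H2 through Gs to adenylyl cyclase, and H3 through Gi, which lowers cyclic AMP; H3 is best known as a presynaptic receptor that limits the release of histamine and other transmitters from neurons. Histamine is cleared by the methyltransferase Hnmt and the diamine oxidase Aoc1, and its products are oxidised by monoamine oxidases and aldehyde dehydrogenases. Each read in these libraries marks the 3′ end of a transcript, so levels (CPM, counts scaled to a common library size with the TMM method, which corrects for a few abundant transcripts) need no division by gene length.

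In the GRCm38 mouse genome (GENCODE M21), Hrh3 lies on the minus strand at chr2:180099465-180104488, a gene of 5024 bases with up to 5 exons. The antisense gene Gm17180 lies within it on the other strand, at chr2:180099913-180101502; it was not analysed here, and the library kit keeps the strand of each read. Hdc is on the same chromosome at chr2:126593667-126619299 on the minus strand. Hrh1 lies at chr6:114397936-114483296 and Hrh2 at chr13:54192129-54236180, both on the plus strand. All 4 genes have start-site windows in RefSeq (build GRCm38.p6), running from 250 bases before the start to 50 after it. Those of Hrh3 and Hdc are shown because Hrh3 was the member with the large difference and because the Hdc window, with an even share of G or C, sets off that of Hrh3. Capitals mark every match, on either strand, to the letters searched, which were the DREAM complex's CHR element (TTTGAA or TTCGAA), an E2F site (TTTCGCGC or TTTGGCGC), a CCAAT box (CCAAT) and a GC box (GGGCGG).
Hrh3 chr2:180104358-180104657, minus strand: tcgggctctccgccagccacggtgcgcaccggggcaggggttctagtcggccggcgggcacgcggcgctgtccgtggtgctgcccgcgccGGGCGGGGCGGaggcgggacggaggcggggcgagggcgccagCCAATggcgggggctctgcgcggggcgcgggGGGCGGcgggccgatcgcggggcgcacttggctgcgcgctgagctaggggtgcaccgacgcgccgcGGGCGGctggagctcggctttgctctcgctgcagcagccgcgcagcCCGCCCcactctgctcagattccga
Hdc chr2:126618629-126618928, minus strand: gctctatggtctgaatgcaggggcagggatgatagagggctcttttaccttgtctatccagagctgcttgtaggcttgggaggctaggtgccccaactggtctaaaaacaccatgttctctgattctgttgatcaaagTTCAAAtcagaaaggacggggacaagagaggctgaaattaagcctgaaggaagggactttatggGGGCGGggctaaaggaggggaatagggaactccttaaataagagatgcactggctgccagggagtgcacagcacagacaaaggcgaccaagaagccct
The Hrh3 window was 79% G or C and held 47 CpG dinucleotides, more than 98.6% of the 32851 windows in the table, whose median was 7. It held 5 GC boxes, 1 CCAAT box at position 133 counted from the 5′ end, and no match to the CHR or E2F letters. The Hdc window held 3 CpG dinucleotides and was 50.7% G or C, with 1 CHR match and 1 GC box. Of the 4 windows of Hrh1, not shown, window 2 was close to that of Hrh3, with 78.3% G or C, 39 CpG dinucleotides and 5 GC boxes. Windows 1, 3 and 4 held 28, 5 and 4 CpG dinucleotides, and the 2 windows of Hrh2 held 15 and 16. A start rich in G or C was thus not particular to Hrh3 among the members. Over all windows, 19.2% held CHR letters, 0.813% an E2F site, 37.4% a CCAAT box and 35.7% a GC box. These matches describe the letters in the windows and say nothing of what binds there.

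The libraries held 5580961 to 9497088 counts. Stag2 was at 127 ± 23.8 CPM in WT and 68.7 ± 7.56 in KO at 1 week (SD, n = 3), and at 55.7 ± 8.30 in WT and 31.2 ± 10.3 in KO at 1 month, so that the KO libraries kept 54.0% and 56.0% of the WT mean. Tags at the 3′ end of the transcript may lie outside the deleted part and need not check it. KO replicate 3 at 1 week stood apart from the other libraries of its time, with a chi-square per gene of 138 and 198 against KO replicates 1 and 2, where the other pairs at 1 week gave 9.10 to 59.6. The mice also differed in sex as read from RNA. At 1 week all 3 KO libraries had 6392 to 10406 Xist counts and at most 4 Y-linked counts, and all 3 WT libraries had at most 13 Xist counts and 1360 to 2140 Y-linked counts, so genotype and sex cannot be told apart at that time. At 1 month every library but KO replicate 3 (7764 Xist counts, no Y-linked count) carried Y-linked transcripts. Urothelial markers were abundant throughout, led by the umbrella cell plaque genes Upk1a and Upk3a (means of 4992 and 2443 CPM over the 12 libraries).

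Hrh3 was a plain presence in WT urothelium and was not detected in KO urothelium 1 week after induction. WT replicates 1, 2 and 3 had 149, 169 and 178 counts at 1 week (18.1, 19.7 and 18.4 CPM), and the 3 KO libraries had 0, 0 and 0. The WT mean was 18.7 ± 0.852 CPM (SD, n = 3). A count of 0 allows up to 3 counts, which is 0.405, 0.331 and 0.612 CPM in KO replicates 1, 2 and 3, so Hrh3 was at least 30.6-fold lower in KO, taking the highest of these floors per library. Without KO replicate 3 the bound was at least 46.3-fold lower. At this time 52.9% of the 12754 genes tested had a higher WT mean than Hrh3, so its WT level was near the middle of the genes measured. Fewer cells that express a gene and less RNA per cell cannot be told apart in such bulk samples.

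At 1 month Hrh3 was again low in each KO library, with a few reads left. The WT libraries had 65, 41 and 91 counts (12.8, 7.36 and 13.9 CPM), and the KO libraries 6, 1 and 1 (0.738, 0.159 and 0.152 CPM). The means were 11.3 ± 3.49 CPM in WT and 0.350 ± 0.336 CPM in KO (SD, n = 3), and without replicate 1 the KO mean was 0.156 CPM. Every KO library was below every WT library at both times, a separation in that direction that 12.5% of genes tested had at 1 week and 7.58% at 1 month; the selection of Hrh3 used these values, so nothing is read from the shares. From the summed counts, 8 in KO and 197 in WT, KO held 3.33% of the WT level (95% exact interval 1.42% to 6.69%, counting error only), or 30.0-fold less (14.9 to 70.5). Within batch 2, where all 4 libraries carried Y-linked transcripts, KO held 4.89% of the WT level (1.92% to 10.4%, from 7 and 106 counts). Within batch 3, where only the WT library did, it held 1.09% (0.0274% to 6.25%, from 1 and 91 counts). The WT level was lower at 1 month than at 1 week in each library, a difference that cannot be told apart from batch.

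The shape of this difference was rare in the table. At 1 week 3 genes were at 0 in each KO library while reaching at least the lowest WT count of Hrh3 in each WT library, and they were Hrh3 and the Y-linked genes Eif2s3y and Uty. At 1 month Hrh3 was the 1 gene with at most 6 counts in each KO library and at least 41 in each WT library. These counts use the values by which Hrh3 was chosen and are a description. Beside it, Stag2 itself kept 54.0% and 56.0% of its WT mean where Hrh3 kept 0% and 3.09%.

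**Figure D1:**
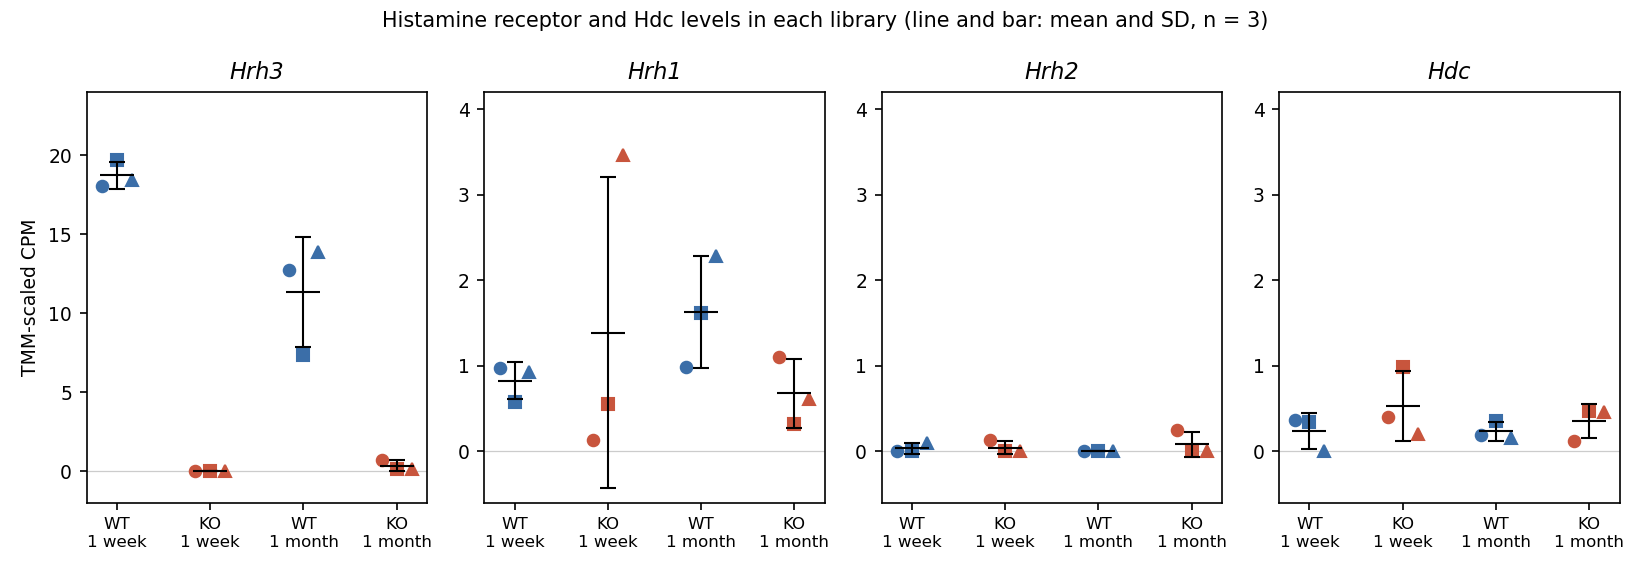
TMM-scaled CPM of Hrh3, Hrh1, Hrh2 and Hdc in each library (circle, square and triangle for replicates 1, 2 and 3), by genotype and time, with the mean as a line and the SD as a bar (n = 3); the Hrh3 axis runs higher than that of the other 3. Hrh3 lies between 7.36 and 19.7 CPM in WT and at or under 0.738 CPM in KO, while no other member exceeds 3.47 CPM in any library.

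Hrh1, the receptor of the classic allergic and smooth muscle responses to histamine, was the next most abundant member and did not differ beyond the spread at either time. At 1 week WT libraries had 8, 5 and 9 counts and KO libraries 1, 5 and 17. The group means were 0.828 ± 0.214 CPM in WT and 1.39 ± 1.82 CPM in KO (SD, n = 3; two-sided exact permutation p = 1). The KO values of 0.135, 0.551 and 3.47 CPM spanned those of WT, and the highest belonged to KO replicate 3, the library that stood apart. Without it the KO mean was 0.343 CPM. The ratio of summed counts was 1.29 in KO over WT, with an exact interval for counting error of 0.690 to 2.44.

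At 1 month the Hrh1 means were ordered the other way. WT libraries had 5, 9 and 15 counts and KO libraries 9, 2 and 4, or 1.63 ± 0.654 and 0.678 ± 0.399 CPM (SD, n = 3). The KO minus WT difference of -0.951 CPM had a two-sided exact permutation p of 0.2 (0.8 after adjustment over the 6 tests of Hrh1, Hrh2 and Hdc), in groups whose smallest possible p is 0.1. Within batch 2 the counts of 5 and 9 in WT and 9 and 2 in KO overlapped, and batch 3 holds the pair of 15 and 4. The ratio of summed counts was 0.424 in KO over WT (0.211 to 0.818), an interval that covers counting error and not the spread between mice. Hrh1 failed the low-count filter within each time; an edgeR quasi-likelihood fit with no filter gave a log2 fold change of 0.59 (SE 1.02, 95% interval -1.42 to 2.59, adjusted p = 0.791) at 1 week and -1.13 (SE 0.79, -2.67 to 0.41, adjusted p = 0.506) at 1 month. Over all 12 libraries it passed the filter, and its genotype effect changed between the times by -1.78 (log2, SE 1.31, edgeR adjusted p = 0.446), in a fit where 0 of 13122 genes (0%) passed, 2611 had an unadjusted p under 0.05 and DESeq2 called 917. Without KO replicate 3 at 1 week that difference was 0.02. A rise of Hrh1 in KO urothelium was therefore not detectable at this depth and spread, and neither was a fall.

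Hrh2, the receptor of gastric acid secretion and of smooth muscle relaxation, was at the limit of detection in both genotypes. At 1 week 1 read was counted in WT replicate 3 and 1 in KO replicate 1, and at 1 month 2 reads in KO replicate 1, with 0 in the other libraries. The two-sided exact permutation p was 1 at both times. The highest Poisson limit for any library was 0.888 CPM (95%), below every WT value of Hrh3. Hrh2 thus stayed well under the level that Hrh3 had in WT, whatever the genotype.

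Hdc, the enzyme that makes histamine, was read a few times per library. At 1 week WT libraries had 3, 3 and 0 counts and KO libraries 3, 9 and 1, or 0.238 ± 0.206 and 0.534 ± 0.410 CPM (SD, n = 3; two-sided exact permutation p = 0.4, adjusted 0.8). At 1 month the counts were 1, 2 and 1 in WT and 1, 3 and 3 in KO, or 0.236 ± 0.109 and 0.352 ± 0.199 CPM (exact permutation p = 0.4, adjusted 0.8). The KO mean was higher at both times, and the groups overlapped at both. At 1 week the KO mean without replicate 2 was 0.304 CPM, against 0.238 in WT. The WT mean without replicate 3 was 0.357 CPM, against 0.534 in KO. Neither omission turned the order of the means. The ratios of summed counts, KO over WT, were 2.68 (0.952 to 8.61) at 1 week and 1.44 (0.365 to 6.69) at 1 month, counting error only. With no filter, edgeR gave log2 fold changes of 1.16 (SE 1.22, 95% interval -1.22 to 3.55, adjusted p = 0.644) and 0.56 (SE 1.46, -2.29 to 3.41, adjusted p = 0.879).

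Hrh3 therefore made up most of the histamine receptor reads in WT, and no other member filled the gap in KO. Hrh3 gave 94.9%, 97.1% and 94.7% of the summed Hrh1, Hrh2 and Hrh3 counts in the WT libraries at 1 week, and 92.9%, 82.0% and 85.8% at 1 month. The summed receptor level was 19.0, 20.3 and 19.5 CPM in WT and 0.270, 0.551 and 3.47 CPM in KO at 1 week. At 1 month it was 13.7, 8.98 and 16.2 CPM in WT and 2.09, 0.478 and 0.759 CPM in KO. The KO library with the highest sum, KO replicate 3 at 1 week, stayed below the lowest WT library of either time. The sum is mostly Hrh3 and has no test of its own for that reason. Hrh4, the gene of the H4 receptor of immune cells, was at 0 in all 12 libraries.

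**Figure D2:**
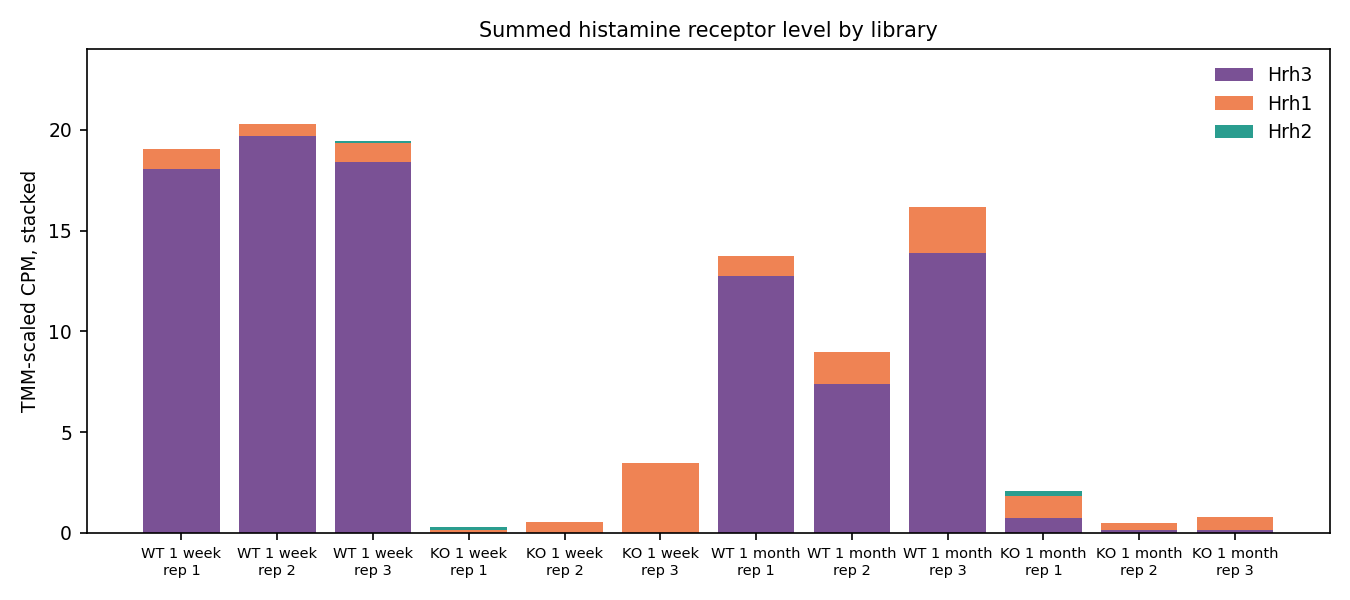
Stacked bars of TMM-scaled CPM of Hrh3, Hrh1 and Hrh2 in each of the 12 libraries. WT bars reach 8.98 to 20.3 CPM and are mostly Hrh3; KO bars reach 0.270 to 3.47 CPM and are mostly Hrh1, except KO replicate 1 at 1 week, with 1 Hrh1 and 1 Hrh2 count.

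Among the receptors for amines as a whole (histamine, serotonin, dopamine, adrenaline, acetylcholine at muscarinic sites and trace amines), Hrh3 had the highest level in each of the 6 WT libraries, out of 36 genes, and gave 24.4% to 38.8% of their summed CPM. In KO it ranked between 8 and 20, ties at 0 included. The next genes in WT were the serotonin receptors Htr4 and Htr1d and the β3 adrenergic receptor Adrb3, at 4.31 to 10.6 CPM. Of the 33 receptors other than Hrh1, Hrh2 and Hrh3, 19 had at most 3 counts in each library, 4 of them none at all (Hrh4, Drd2, Htr1b and Taar1). By edgeR none of the 7 tested at 1 week and none of the 6 tested at 1 month passed an adjusted p of 0.05, where 0.0627% and 2.22% of all genes tested did (0.0157% higher and 0.047% lower in KO at 1 week, 0.997% and 1.22% at 1 month); 3 and 1 had an unadjusted p under 0.05, and DESeq2 called 2 (Adrb3 and Chrm2, 1 week) and 0. Over all genes tested, 1976 of 12754 at 1 week and 2608 of 12139 at 1 month had an unadjusted p under 0.05. Those numbers are the background for such counts in the lists and neighbours below as well. The median log2 fold change of the listed receptors was -0.28 at 1 week and 0.41 at 1 month, beside 0.02 and -0.01 over all genes.

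The 3 next receptors were lower in each KO library than in any WT library at 1 week, in values that did not pass. This separation was shown by 12.5% of genes tested. Htr1d had 69, 62 and 68 counts in WT against 39, 15 and 2 in KO (log2 fold change -1.59, SE 0.75, edgeR adjusted p = 0.363). Htr4, a Gs-coupled serotonin receptor, had 80, 55 and 78 against 34, 12 and 2 (-1.90, SE 0.74, edgeR adjusted p = 0.288). Adrb3, which relaxes bladder muscle and is the target of drugs for overactive bladder, had 38, 46 and 102 against 22, 7 and 3 (-2.21, SE 0.71, edgeR adjusted p = 0.214). At 1 month the genotypes overlapped for all 3, with Adrb3 at 3, 11 and 31 counts in WT against 17, 17 and 35 in KO. The muscarinic receptor Chrm2 of the same list was separated the other way at 1 week, as 14.1% of genes tested were. It had 0, 6 and 8 counts in WT against 25, 17 and 59 in KO (log2 fold change 3.41, SE 1.07, edgeR adjusted p = 0.208). The summed level of the 35 receptors other than Hrh3 was 31.1 to 35.1 CPM in WT and 18.6 to 26.0 in KO at 1 week, and 22.8 to 24.7 and 21.8 to 28.2 at 1 month.

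The genes that clear or carry histamine were present without a change that passed. By edgeR none of 7 tested at 1 week and none of 6 at 1 month passed (2 and 2 at an unadjusted p under 0.05; DESeq2 called 0 and 0), and the medians were 0.10 and 0.52. Hnmt, the intracellular methyltransferase, had 17, 36 and 11 counts in WT against 11, 5 and 2 in KO at 1 week (log2 fold change -1.55, SE 0.73, edgeR adjusted p = 0.366). At 1 month it had 10, 3 and 22 in WT and 13, 10 and 33 in KO (0.46, SE 0.53, edgeR adjusted p = 0.642), so its levels overlapped at both times. Aoc1, the diamine oxidase that degrades histamine outside cells (listed under its older symbol Abp1), had at most 9 counts in any library. The vesicle transporter Slc18a2, which loads histamine into granules, had at most 3. The most abundant genes of the list serve many substrates: the aldehyde dehydrogenase Aldh2 (1137 to 1708 counts in WT against 1469 to 2514 in KO at 1 week), the monoamine oxidase Maoa (430 to 1036 and 207 to 634), Aldh7a1 and Maob.

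Downstream of the receptors, the G proteins were abundant in both genotypes. All 18 genes listed were tested, and by edgeR none passed at either time (2 at an unadjusted p under 0.05 at each). DESeq2 called Gnai1 and Gnb4 at 1 week and none at 1 month, beside 957 of 12754 and 781 of 12139 genes tested. Gnai1 and Gnb4 were higher in KO at 1 week (edgeR log2 fold changes 1.68, SE 0.40, and 1.31, SE 0.39). The inhibitory subunit Gnai2, through which H3 can signal, had 4138, 4788 and 5143 counts in WT against 4494, 7781 and 3389 in KO at 1 week, and 3103, 3471 and 4097 against 6055, 4754 and 5096 at 1 month (log2 fold changes 0.44, SE 0.27, and 0.29, SE 0.21; edgeR adjusted p = 0.466 and 0.442). Its CPM did not overlap between the genotypes at either time and was higher in KO, a separation that 14.1% of genes showed at 1 week and 5.72% at 1 month. The stimulatory subunit Gnas and the βγ subunits Gng5 and Gnb1 overlapped at both times. Without KO replicate 3 of each time, edgeR called 1 gene at each, Gnai1 at 1 week and Gnb2 at 1 month. Over all genes tested, those fits called 320 of 13059 at 1 week and 1513 of 12351 at 1 month.

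Of 17 effector enzymes tested at each time, 1 passed by edgeR, the protein kinase C gene Prkcb at 1 month, where 2.22% of all genes tested passed. An unadjusted p under 0.05 was reached by 3 at 1 week and 5 at 1 month, beside 1976 of 12754 and 2608 of 12139 genes tested. DESeq2 called none at 1 week, and at 1 month Prkcb and the kinase subunit Prkaca, which was higher in KO (edgeR log2 fold change 0.88, SE 0.25, adjusted p = 0.0797). At 1 month Prkcb had 169, 157 and 302 counts in WT against 107, 100 and 126 in KO. It fell by 1.14 on the log2 scale (SE 0.23, edgeR adjusted p = 0.0286). The difference was -1.05 in batch 2 and -1.25 in batch 3, taken from log2 of mean CPM plus 0.5. Every KO library was below every WT library in CPM, a separation that 7.58% of genes tested showed at 1 month. At 1 week it had 127, 159 and 142 against 88, 245 and 90 (log2 fold change 0.24, SE 0.38, edgeR adjusted p = 0.773). The calcium release channels Itpr1 and Itpr3, the catalytic subunit Prkacb and the phospholipase Plcb4, the other abundant genes of the list, did not pass at either time. None of 14 genes of receptor desensitisation tested (kinases, arrestins and RGS proteins, led by Rgs5, Arrb1, Rgs12 and Grk4) passed by edgeR at 1 week or 1 month, with 4 and 2 at an unadjusted p under 0.05, and DESeq2 called 3 (Arrb1, Rgs2 and Rgs4) and 1 (Rgs10). Arrb1, Rgs2 and Rgs4 were higher in KO at 1 week (edgeR log2 fold changes 1.53, SE 0.44, 2.91, SE 0.81, and 1.77, SE 0.44). Rgs10 was lower in KO at 1 month (-0.95, SE 0.25). DESeq2 called 957 of all 12754 genes tested at 1 week and 781 of 12139 at 1 month. Without KO replicate 3, edgeR at 1 month called Prkcb with Prkaca and Prkca among the effectors, and Rgs10 among the desensitisation genes. That fit called 1513 of all 12351 genes tested.

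Markers of other cells were read because Hdc marks mast cells and basophils and Hrh3 is known in neurons. None of the mast cell and basophil markers passed by edgeR (5 tested at 1 week and 4 at 1 month, 1 at an unadjusted p under 0.05 at each; DESeq2 called 1, Tpsb2, at 1 week and 0 at 1 month). Tpsb2, a mast cell tryptase, had 8, 9 and 7 counts in WT against 40, 31 and 86 in KO at 1 week (log2 fold change 3.23, SE 0.73, edgeR adjusted p = 0.127), and 22, 38 and 37 against 47, 19 and 27 at 1 month. Cpa3, the mast cell carboxypeptidase, had 7, 10 and 2 against 6, 22 and 5 at 1 week and 1, 1 and 10 against 3, 6 and 23 at 1 month. Hpgds had 30, 29 and 56 against 44, 59 and 54 at 1 week and 40, 31 and 70 against 24, 34 and 32 at 1 month. Its CPM did not overlap between the genotypes, higher in KO at 1 week and lower at 1 month, as 14.1% and 7.58% of genes were. The log2 fold changes were 0.86 (SE 0.44) and -0.85 (SE 0.38), with edgeR adjusted p = 0.397 and 0.217. Among the 1 week libraries KO replicate 2 was highest for both Cpa3 (22 counts) and Hdc (9 counts). Mcpt2 was at 0 in every library and Fcer1a had at most 1 count. The summed level of all 15 markers, most of it Gata2, was 79.2 to 110 CPM in WT and 68.0 to 117 in KO at 1 week, and 36.5 to 74.8 and 38.3 to 52.4 at 1 month. The part of these cells in the Hdc values was not tested.

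Among neuron and glia markers, 2 of 7 tested fell at 1 month by edgeR, where 1.22% of all genes tested were called lower, and none passed at 1 week (4 at an unadjusted p under 0.05). DESeq2 called Uchl1, Syt1 and S100b at 1 week, and at 1 month Uchl1 but not Syt1, beside 957 of 12754 and 781 of 12139 genes tested. S100b went the other way, with 25, 25 and 21 counts in WT against 84, 179 and 206 in KO at 1 week (log2 fold change 3.16, SE 0.56, edgeR adjusted p = 0.0937). Sox10 had 7, 9 and 6 against 15, 14 and 21 (1.60, SE 0.60, edgeR adjusted p = 0.27). S100b and Sox10 were higher in KO without overlap at 1 week, as 14.1% of genes tested were, and overlapped at 1 month. Uchl1, a ubiquitin hydrolase abundant in neurons, had 7848, 6344 and 14721 counts in WT against 1865, 407 and 275 in KO at 1 week (log2 fold change -3.19, SE 0.74, edgeR adjusted p = 0.137). At 1 month it had 13829, 9086 and 7319 against 6000, 1573 and 882, and fell by 2.44 on the log2 scale (SE 0.41, edgeR adjusted p = 0.0196; -2.13 in batch 2 and -3.06 in batch 3). Syt1, the calcium sensor of synaptic vesicles, had 41, 34 and 87 against 7, 10 and 1 at 1 week and 21, 17 and 31 against 8, 6 and 3 at 1 month, when it fell by 2.28 (SE 0.53, edgeR adjusted p = 0.0443; -1.48 in batch 2 and -2.45 in batch 3). Both were lower in each KO library than in any WT library at both times, as Hrh3 was. Over all genes tested, 12.5% were separated in this direction at 1 week and 7.58% at 1 month. The sum of the other 15 markers without Uchl1 was 26.7 to 35.1 CPM in WT and 31.3 to 70.4 in KO at 1 week, and 29.8 to 47.6 and 31.1 to 41.0 at 1 month. Th, the marker of sympathetic neurons, was at 0 in every library. Without KO replicate 3, edgeR called S100b at 1 week, and Uchl1 and Prph but not Syt1 at 1 month. Those fits called 320 of 13059 and 1513 of 12351 genes tested.

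The summed endothelial and smooth muscle markers (11 genes) were 285 to 458 CPM in WT and 615 to 1459 in KO at 1 week, without overlap. At 1 month they were 237 to 1102 and 328 to 717. By edgeR none passed at either time, with 6 and 3 at an unadjusted p under 0.05. DESeq2 called Pecam1, Vwf and Tagln at 1 week, all higher in KO, beside 957 of 12754 genes tested. At 1 month it called Pecam1 and Kdr, higher in KO, and Tagln, lower, beside 781 of 12139. Pecam1 was higher in KO without overlap at both times, as 14.1% and 5.72% of genes tested were. Its log2 fold changes were 1.33 (SE 0.37) and 1.31 (SE 0.33), with edgeR adjusted p = 0.172 and 0.062. The fibroblast and leukocyte markers (14 genes) summed to 3597 to 5699 CPM in WT and 5154 to 10225 in KO at 1 week, and 10258 to 14587 and 7974 to 9650 at 1 month, when the macrophage genes Csf1r and C1qa and the antigen presentation gene Cd74 fell (log2 fold changes -1.13, -1.95 and -1.76, edgeR adjusted p = 0.0429, 0.0121 and 0.00344). The urothelial markers summed to 12284 to 15363 CPM in WT and 10228 to 14350 in KO at 1 week, and 16323 to 30823 and 11477 to 17205 at 1 month, when the umbrella cell keratin Krt20 fell (log2 fold change -1.76, SE 0.25, edgeR adjusted p = 0.00601). By edgeR 3 of 12 fibroblast and leukocyte markers and 1 of 15 urothelial markers tested passed at 1 month, against 2.22% of all genes. DESeq2 at that time called the same 3 of the first list, and Upk1a, Krt20, Krt18 and Krt5 of the second, beside 781 of 12139 genes tested. The basal keratin Krt5 was higher in KO without overlap (log2 fold change 1.44, SE 0.34, edgeR adjusted p = 0.0505), as 5.72% of genes tested were. Upk3a, Krt20, Krt18 and Foxa1 were lower in KO without overlap, as 7.58% of genes tested were. None of either list passed by edgeR at 1 week (7 fibroblast and leukocyte and 2 urothelial markers at an unadjusted p under 0.05). DESeq2 then called Col1a1, Pdgfra, Csf1r and C1qa of the first and Krt14 of the second, all with a higher KO mean. Csf1r was at 51.9, 26.6 and 32.9 CPM in WT against 78.5, 78.6 and 174 in KO. C1qa was at 44.8, 21.8 and 26.8 against 75.5, 87.7 and 218. Csf1r and C1qa were thus higher in KO without overlap at 1 week, as 14.1% of genes tested were, and lower at 1 month. Each sum rests mostly on its most abundant markers, so it cannot show the loss of a minor cell type. The part of these cells in the Hrh3, Hrh1 and Hdc values was not tested.

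Of the 5 listed genes on each side of Hrh3 on the chromosome, 9 were tested and by edgeR none passed at 1 week or at 1 month, with 1 and 0 at an unadjusted p under 0.05; DESeq2 called 1 (Lama5, a laminin chain of the basement membrane) at 1 week and 0 at 1 month. At 1 week 6 of the 9 had negative fold changes, and in Mtg2, Ss18l1, Lama5 and Rps21 every KO library was below every WT library, a separation that 12.5% of genes tested showed; at 1 month none of the 9 was separated. The smallest adjusted p was 0.159 at 1 week and 0.242 at 1 month. Mtg2, a mitochondrial GTPase gene listed under its older symbol Gtpbp5, ends nearest to Hrh3 on 1 side, 13562 bases away. Its KO libraries were at 95.4%, 71.5% and 27.1% of the WT mean at 1 week and at 109%, 128% and 166% at 1 month. Osbpl2, an oxysterol-binding protein gene 14817 bases away on the other side, was at 121%, 83.8% and 49.9% at 1 week and at 109%, 78.1% and 93.8% at 1 month. Log2 fold changes over the 9 genes ran from -1.46 to 0.95 at 1 week and from -0.46 to 0.55 at 1 month. The lowest neighbour values at 1 week were in KO replicate 3, the library that stood apart, where Ss18l1 was at 3.39% and Rps21 at 2.35% of the WT mean; in the other KO libraries no neighbour was under 42.2%.

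**Figure D3:**
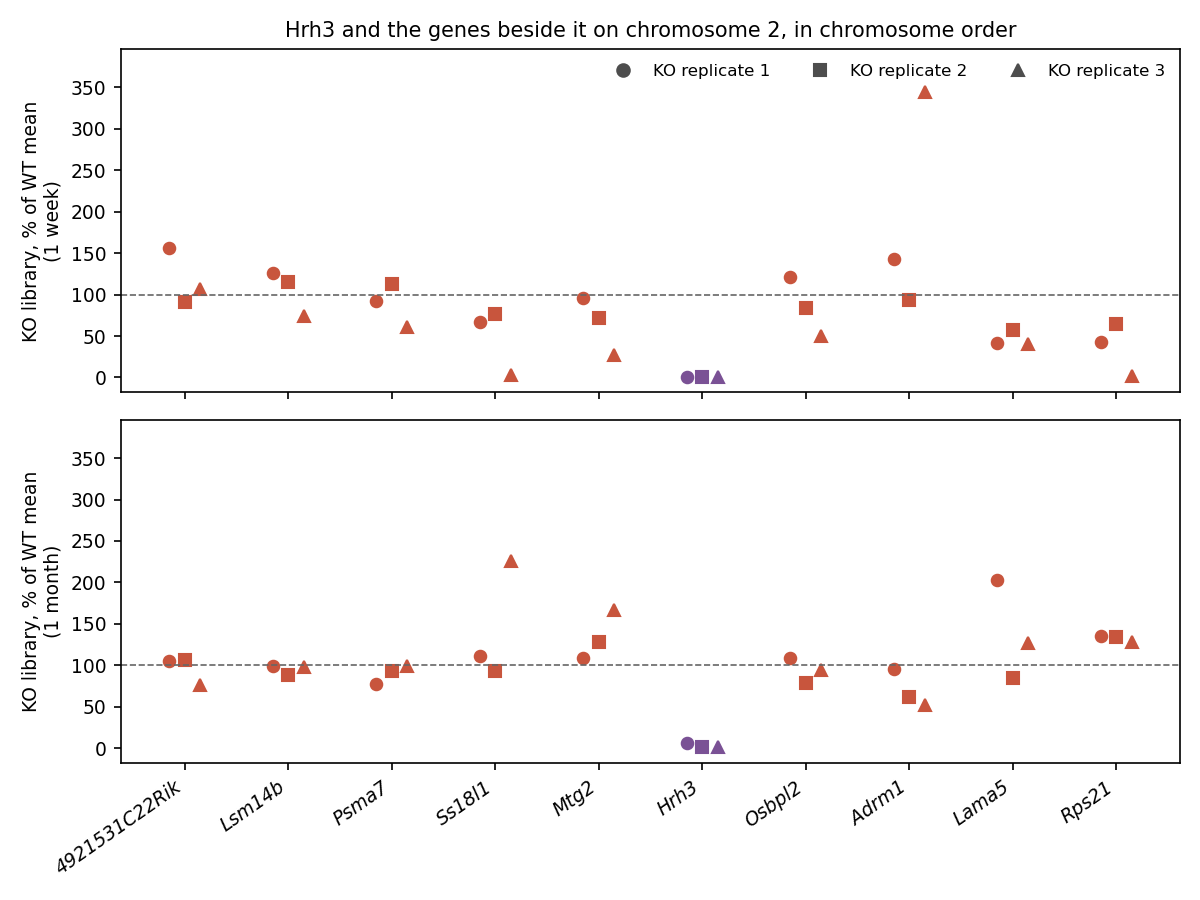
CPM of each KO library as a percentage of the WT mean of its time, for Hrh3 (purple) and the listed genes on either side of it in chromosome order (evenly spaced, not to distance), at 1 week above and 1 month below; the dashed line is the WT mean. Hrh3 lies at 0% at 1 week and at or under 6.51% at 1 month, and at 1 month every neighbour with counts lies at 52.1% or more in each KO library.

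Over the 12 libraries, the genes whose pattern was most like that of Hrh3 were ranked by Pearson's r of log2 CPM, each library centred on the mean of its batch, among 11576 genes with a mean of at least 20 counts. The first 10 had r from 0.93 to 0.98, and since Hrh3 itself separates the genotypes, a gene like it had to differ between them, so no test is given. Homer2, a scaffold of postsynaptic and calcium signalling proteins, was first (r = 0.98), with 1865, 1986 and 2206 counts in WT against 1307, 1522 and 823 in KO at 1 week. Its KO level was at 60.1% or more of the WT mean in each library, far from that of Hrh3. Duox1, the hydrogen peroxide-producing oxidase, was next (r = 0.97), with 212, 247 and 231 against 55, 80 and 54 counts at 1 week and 113, 151 and 188 against 106, 85 and 71 at 1 month. Gipc2, a PDZ domain protein gene (r = 0.96), came nearest to Hrh3 in depth of loss at 1 week, with 165, 150 and 215 against 16, 5 and 5 counts, or 10.8%, 2.77% and 5.12% of the WT mean. At 1 month its KO libraries were at 52.5%, 27.0% and 5.40%. Fam189a2, the vesicle coat gene Ap3b2, Rtn4rl1, Stag2 itself (r = 0.93), the calcium-activated potassium channel gene Kcnma1, Tc2n and Syt1 completed the 10. The correlation is over libraries that share batch and genotype, and it describes their likeness only.

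**Figure D4:**
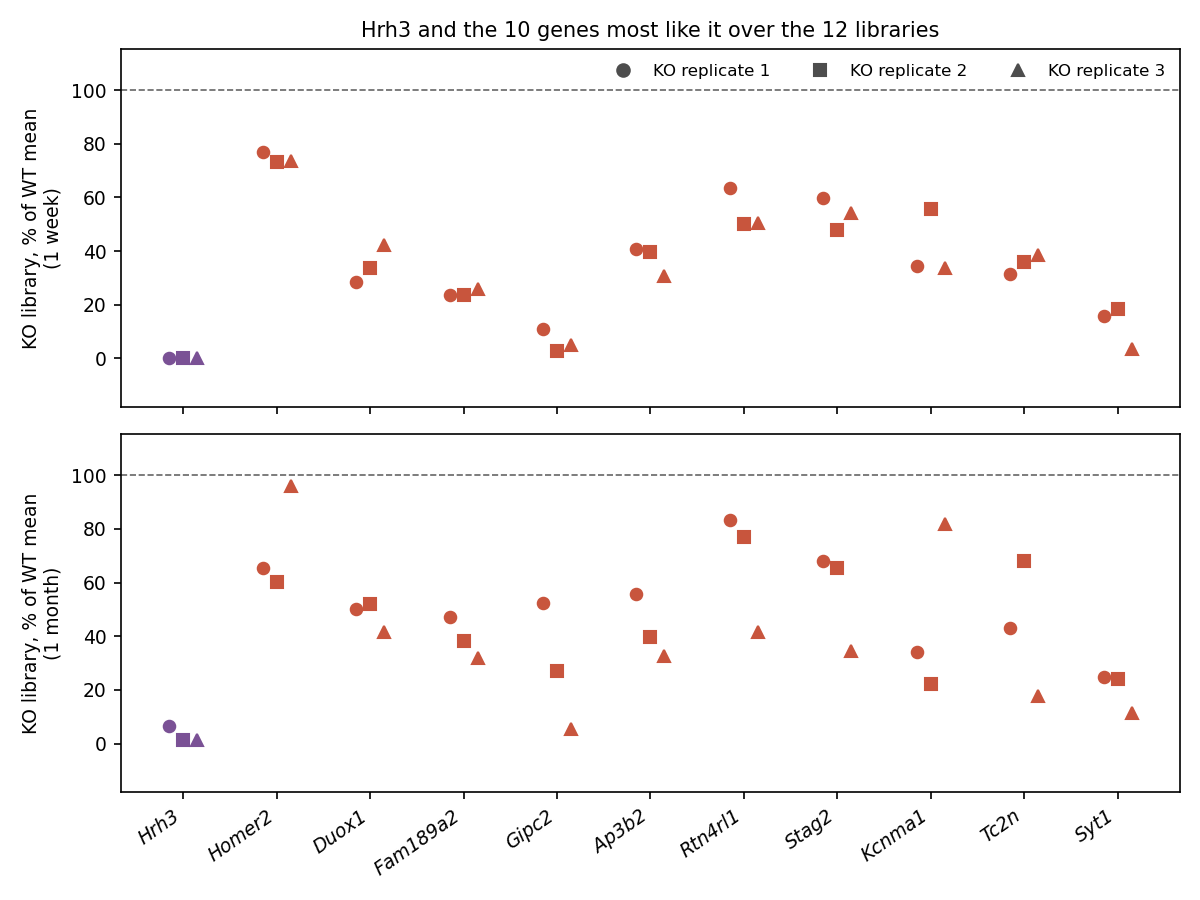
CPM of each KO library as a percentage of the WT mean of its time, for Hrh3 (purple) and the 10 genes with the highest correlation to it over the 12 libraries, at 1 week above and 1 month below; the dashed line is the WT mean. At 1 week Hrh3 is at 0% and Gipc2 and Syt1 come next, while Homer2 is at 73.4% or more.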

How the data were processed

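RNA of peeled urothelium from 12 mouse libraries was sequenced from the 3′ end with a stranded kit, per the labels' protocols. The authors deposited whole-number read counts per gene, 1 table per time, not normalized; the submitters' processing notes name Bowtie, TopHat, HTSeq, DESeq2 and mm10. Columns were matched to samples by library name; for WT replicate 3 at 1 month the number in the title differs from the library name, and the library name was followed.

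Counts were tested with edgeR 4.0.16 (R 4.3.3, limma 3.58.1; TMM, filterByExpr, robust quasi-likelihood test, two-sided, Benjamini-Hochberg threshold 0.05), each time in its own fit, with batch as a covariate at 1 month, and with all 12 libraries for the difference between times. The procedure was tested on simulated data. Alternatives were DESeq2 1.42.0, other size factors and filters, no batch term, batch 2 alone and each library left out. Hrh1, Hrh2 and Hdc failed filterByExpr within each time, so their counts carry no test from that fit; two-sided exact permutation tests of CPM (3 against 3), exact intervals of summed counts (95%, counting error only) and unfiltered fits were added after the data were seen, as were the calls without KO replicate 3. The labels name no animals, so p-values measure the spread between these samples, which may be technical.

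The members and gene lists were chosen with earlier results of these data known. Genes were named by rule: the members, label-check genes, list genes past the threshold, the 4 most abundant of each list, 5 neighbours a side and the 10 genes most like Hrh3 (log2 CPM, prior count 2). Others named (Hnmt, Aoc1, Slc18a2, Cpa3, Mcpt2, Fcer1a, Th, Hrh4, Drd2, Htr1b, Taar1, and genes called by DESeq2 or with a library left out) were chosen after their values were seen. All 182 list symbols were matched; 1 gene of the lists is not reported here.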

Additional observations from a re-analysis of the deposited data

How the results depend on the processing

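Neither other scaling moved a mean level of Hrh3, Hrh1, Hrh2 or Hdc by over 1 SD. Leaving out 1 library moved KO means of few counts further: Hrh1 at 1 week to 0.343 CPM without replicate 3, Hdc at 1 week to 0.304 without replicate 2, Hrh3 at 1 month to 0.156 without replicate 1, and Hrh2 to 0 without replicate 1 at either time. The Hrh1 difference between times was 0.0188 (log2) without KO replicate 3 at 1 week, against -1.78, and the lowest value with a library left out was -2.52; adjusted p ran from 0.248 to 0.989, and Hrh1 passed no threshold in any. At 1 week 8 genes passed by edgeR in the reported fit, 957 by DESeq2 and 62 with no filter, and 0 to 320 with a library left out (0 without WT replicate 1 or 2, 1 without WT replicate 3, 56, 2 and 320 without KO replicates 1, 2 and 3). At 1 month 269 passed, 781 by DESeq2, 1276 with no filter, 0 with no batch term (919 at an unadjusted p under 0.05) and 1474 in batch 2 alone, and 45 to 1522 with a library left out (63 without KO replicate 1, 83 and 45 without WT replicates 1 and 2, 84 without KO replicate 2, 1522 and 1513 without WT or KO replicate 3). For the difference between times 0 passed (2611 at an unadjusted p under 0.05), 917 by DESeq2, 137 with no filter and 15 with batch 2 alone at 1 month, and 0 to 440 with a library left out (215, 440 and 311 without KO replicates 1, 2 and 3 at 1 week). The cause of these differences was not tested. With no value in the reported fits, Hrh1, Hrh2 and Hdc within each time, and Hrh2 and Hdc between times, have no alternatives beyond the unfiltered fit. No paired analysis was possible because the labels give the libraries no shared replicate numbers. Depth limits Hrh1, Hrh2 and Hdc to at most 17 counts a library.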
